A study of Mus musculus with 12 samples.

Results

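The genes described here encode the receptors for glutamate and GABA, the main excitatory and inhibitory transmitters of the brain, and were followed across the H3K14ac profiles of mouse neural stem and progenitor cells (NSPCs). They were chosen by symbol (Gria, Grik, Grid and Grin, Grm, Gabra to Gabrr, Gabbr1 and Gabbr2) and by a gene length under 400000 bases, a rule that uses no ChIP value but was set with earlier results of these data known. The symbols matched 50 of the 27095 genes counted, and 39 of the 50 were under the length limit. Grik1 (394362 bases) lay just inside the limit, and Grin2a (414824 bases) and Grik4 (423960 bases) just outside it. The 11 genes left out include Gabrb1, Gabrg3, Grid1, Grik2, Grik4, Grin2a, Grin2b, Grm5, Grm7 and Grm8.

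Of the 39 genes, 36 encode receptor subunits. The 17 glutamate receptor genes comprised 4 AMPA (Gria), 3 kainate (Grik), 5 NMDA (Grin) and 5 metabotropic (Grm) genes. The 19 GABA receptor genes comprised 14 GABA-A, 3 GABA-A rho and 2 GABA-B genes. In all, 29 were ionotropic and 7 metabotropic. The other 3 genes match by name only: Grina encodes a membrane protein that is no receptor subunit, Grid2ip a scaffold protein, and Grin1os a noncoding RNA gene opposite Grin1. They were counted as members and kept out of the classes.

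Cells came from the cortex and ganglionic eminences of foetuses at E14.5 (embryonic day). They were grown either as neurospheres (proliferating) or on laminin in medium for cortical neurons (differentiating), and the study's description names 4 wild-type foetuses. Chromatin was precipitated with an antibody to histone H3 acetylated at lysine 14 (H3K14ac). The 12 libraries were 3 WT H3K14ac libraries per stage, 1 WT input library (chromatin without precipitation) per stage, 1 IgG control per stage and 1 H3K14ac library of Hbo1 null cells per stage. Hbo1 (Kat7) is the acetyltransferase that makes this mark, and the description gives the null cells as lacking it. The IgG labels give no genotype, and nothing in the labels says how the deletion was made. Replicate numbers are not tied to a culture or a foetus, so p-values reflect the spread among these libraries, which can be technical.

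Glutamate opens AMPA, kainate and NMDA channels and thereby excites the postsynaptic neuron, while GABA opens the chloride channels formed by GABA-A subunits. Metabotropic glutamate receptors and GABA-B receptors act through G proteins instead, and several metabotropic glutamate receptors dampen release, so "excitatory" and "inhibitory" below refer only to the transmitter. H3K14ac is an acetyl mark found at the starts of active genes, and most receptor subunits are made by neurons rather than by dividing progenitors.

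The promoters of 4 members are shown because results below turn on them and because they differ widely in CpG content. Each run holds 250 bases before and 50 bases after a start site in the RefSeq table for GRCm38.p6, read 5′ to 3′ on the gene's strand, with every CG dinucleotide in capitals. Gria2 (chr3:80802786-80803085, minus strand, 26 CG) and Gabbr1 (chr17:37045716-37046015, plus strand, 18 CG) had the highest start windows over input among the members tested. Gabra6 (chr11:42321023-42321322, minus strand, 2 CG) had the highest stage difference among the members tested. Grik3 (chr4:125490446-125490745, plus strand, 50 CG) had the most CG of the 28 members with an entry and a start window below input (not called). The start sites given for Gria2 and Grik3 lie inside the annotated genes, and which start the deposited counts used is not given in the sources used here. The runs of these genes may therefore belong to other starts than their counted windows.
Gria2: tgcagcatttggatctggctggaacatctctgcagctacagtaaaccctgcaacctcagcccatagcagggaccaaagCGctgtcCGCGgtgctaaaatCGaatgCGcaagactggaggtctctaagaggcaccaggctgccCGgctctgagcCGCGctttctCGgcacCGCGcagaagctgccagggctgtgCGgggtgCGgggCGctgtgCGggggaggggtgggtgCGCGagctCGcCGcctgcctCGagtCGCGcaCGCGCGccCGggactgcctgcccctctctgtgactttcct
Gabbr1: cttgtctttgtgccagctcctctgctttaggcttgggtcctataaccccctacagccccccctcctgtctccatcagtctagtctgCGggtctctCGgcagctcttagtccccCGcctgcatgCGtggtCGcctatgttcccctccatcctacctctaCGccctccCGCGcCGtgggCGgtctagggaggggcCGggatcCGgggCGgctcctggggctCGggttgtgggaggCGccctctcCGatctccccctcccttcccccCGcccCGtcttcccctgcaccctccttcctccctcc
Gabra6: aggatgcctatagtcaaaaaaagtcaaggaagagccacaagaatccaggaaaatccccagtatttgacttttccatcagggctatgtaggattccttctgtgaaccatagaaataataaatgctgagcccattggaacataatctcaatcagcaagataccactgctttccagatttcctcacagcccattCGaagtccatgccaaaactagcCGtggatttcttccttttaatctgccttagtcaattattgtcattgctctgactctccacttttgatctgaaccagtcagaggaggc
Grik3: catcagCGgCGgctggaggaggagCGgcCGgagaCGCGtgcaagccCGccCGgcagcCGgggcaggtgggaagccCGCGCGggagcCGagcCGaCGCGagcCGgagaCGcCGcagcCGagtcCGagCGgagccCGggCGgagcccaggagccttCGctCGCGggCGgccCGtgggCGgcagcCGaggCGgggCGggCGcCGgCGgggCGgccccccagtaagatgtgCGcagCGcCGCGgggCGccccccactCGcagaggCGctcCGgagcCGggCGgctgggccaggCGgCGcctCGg

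Entries in that table were found for 28 of the 39 members (32 promoters), and 11 members had none. The member promoters held 0 (Gabra3, both entries) to 50 CG (Grik3), with a median of 12 against 7 for all 32851 promoters of the same length. The motif GGGCGG, the core of the GC box, was in 16 of the 32 on either strand, against 35.7% of all promoters. TATAAA, the TATA box core, was in 4 of 32 against 13.6%, and TGANTCA, the AP-1 core, in 2 of 32 against 7.81%. GGACAGC and CAGCACC, which are parts of the element bound by the neuronal repressor REST, were each in 2 of 32, against 6.56% and 7.14%. These matches describe letters only.

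Gene body counts totalled 3992697 to 17074249 per WT library, 11871306 and 12689734 in the inputs, 2526252 and 2771713 in the IgG controls, and 64071 and 320601 in the Hbo1 null libraries. Levels are given as CPM, counts per 1e6 gene body counts of the same library. The WT libraries of proliferating replicate 1 and differentiating replicate 3 stood apart by chromosomal content: 7 Y chromosome genes summed to 62.1 and 275 CPM there and to 13.9 to 15.6 CPM in the other 4 WT libraries. The inputs, whose labels carry the number of WT replicate 1, stood at 9.94 (proliferating) and 12.6 CPM (differentiating). Calls of members that changed without the WT libraries of high Y counts are given both ways, while most class sums are given with those libraries only. As a check of the cell label, the start windows of 16 neural stem and progenitor markers summed to 2.97 to 3.65 times input in the proliferating stage and to 1.39 to 2.02 times in the differentiating stage. Those of 11 neuronal markers summed to 1.03 to 1.53 and 0.908 to 1.28 times input. The neuronal mean went from 1.32 to 1.08 times, so this list gave no check of the differentiating label. All genes together had means of 1.42 and 1.07 times input. The IgG controls stood at 1.65 and 0.894 times input for the progenitor list and at 1.26 and 0.812 times for the neuronal list. Markers of the oligodendrocyte lineage summed to 1.38 to 1.76 and 1.31 to 1.35 times input. Astrocyte, microglia, endothelial and mesenchymal lists lay at 0.716 to 1.33 and 0.834 to 1.39 times. A bulk ChIP cannot tell fewer cells carrying the mark at a window from less of it per cell.

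At their start windows (the 1000 bases from the start site, here TSS windows) the receptor genes were covered at about the level of input. A member's TSS window held 0 to 31 counts in the WT libraries (median 10), 6 to 27 in the inputs, 0 to 9 in the IgG controls and 0 to 3 in the null libraries, where 68 of 78 values were 0. All windows have the same length, so length does not enter the levels, but they are not corrected for input, which differed between windows. The highest mean levels over the 6 WT libraries belonged to Grin2d (1.78 CPM), Gria2 (1.75 CPM), Grina (1.64 CPM), Grin2c (1.58 CPM), Grik5 (1.55 CPM), Gabrg1 (1.53 CPM), Gabbr2 (1.50 CPM) and Grm3 (1.49 CPM). Neighbours in this order do not differ beyond the spread between libraries, since Grin2d alone ranged from 0.861 to 3.26 CPM.

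**Figure D1:**
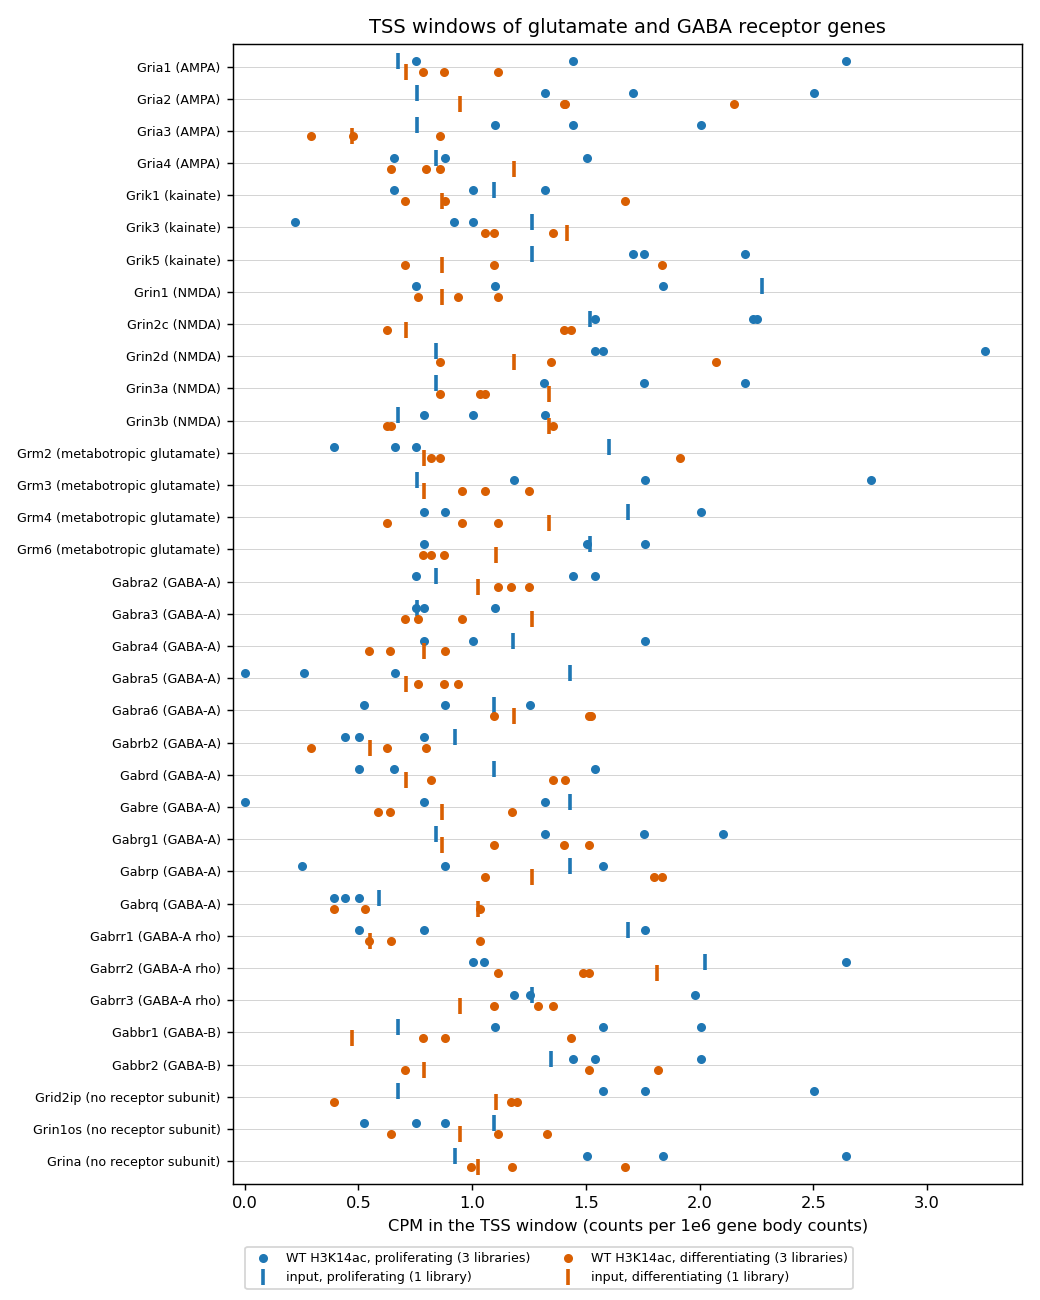
CPM in the TSS window (x axis, counts per 1e6 gene body counts) of each of 35 of the 39 members (rows, grouped by class), with 3 WT H3K14ac libraries per stage as points and 1 input library per stage as bars. Most WT points lie on either side of the input of their stage, while some members, Gria2 and Gabbr1 among them, have all 6 points above both of their inputs.

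Summed over the 36 receptor genes, TSS windows stood at 1.16, 1.08 and 0.940 times input in the 3 proliferating WT libraries and at 1.29, 0.929 and 0.976 times in the 3 differentiating ones. All genes together stood at 1.36, 1.46 and 1.44 times input in proliferating and 1.14, 1.00 and 1.06 times in differentiating libraries. The receptor sums thus lay below the sum of all genes in every proliferating library and on both sides of it in the differentiating ones. The IgG controls gave 0.934 and 0.774 times input for the receptor genes. The Hbo1 null libraries held 1 and 10 counts in all 36 windows together. The 10 counts equal 0.904 times input with an exact Poisson 95% interval of 0.433 to 1.66, which covers counting error only, so the WT and null levels could not be told apart at this depth.

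Of all counts in the receptor gene bodies, TSS windows took 1.14%, 0.998% and 0.877% in the proliferating WT libraries. They took 0.994%, 0.716% and 0.763% in the differentiating ones. The inputs gave 1.09% and 0.876%, so the WT shares lay on both sides of input in each stage. Over all genes the WT share was 3.24% to 4.90%.

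Among classes, AMPA receptors and GABA-B receptors stood highest over input. AMPA subunits form the channels of fast excitation. Their 4 windows summed to 27, 27 and 40 counts in proliferating WT libraries against 36 in the deeper input, which is 1.96, 2.23 and 1.73 times input. In differentiating libraries they summed to 54, 50 and 59 counts against 42, which is 1.30, 1.18 and 1.04 times input. Every AMPA sum lay above its input, and the proliferating sums all lay above the differentiating ones. The sum of all genes fell between the stages as well, from a mean of 1.42 to 1.07 times input. As log2 over input the AMPA sum was 0.97 ± 0.18 in proliferating and 0.23 ± 0.16 in differentiating cells (SD, n = 3). With TMM scaling of the TSS windows, which centres the bulk of all windows, these became 0.57 and 0.17. In the edgeR stage comparison given below, with TMM, no input and windows of any count, 2 AMPA genes were positive and 2 negative. Their log2 differences ran from 0.26 to -1.09 (the X-linked Gria3). The IgG controls held 7 counts per stage in these windows, or 0.914 and 0.763 times input.

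The 2 GABA-B genes encode the subunits of the metabotropic GABA receptor. Their windows summed to 1.31, 1.98 and 1.49 times input in proliferating and 2.34, 1.18 and 2.14 times in differentiating libraries, from 12 to 46 counts per library. The proliferating IgG control stood at 1.57 times input for the same windows (8 counts), within the range of the WT libraries of that stage. The differentiating IgG control stood at 0.858 times (3 counts), below all 3 WT libraries. With TMM scaling the GABA-B sums became 0.25 in proliferating and 0.80 in differentiating cells (log2 over input), so GABA-B in differentiating cells then stood above AMPA in proliferating cells.

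GABA-A subunits, which form chloride channels, summed to 1.05, 0.694 and 0.832 times input in proliferating and 1.25, 0.993 and 0.958 times in differentiating libraries. NMDA subunits, which form calcium-permeable channels, summed to 1.25, 1.47 and 1.26 times input, then 1.29, 0.719 and 0.959 times. Kainate subunits, which modulate release and excitability, summed to 1.03, 1.04 and 0.907 times input, then 1.54, 0.918 and 0.836 times. Metabotropic glutamate receptors summed to 0.895, 1.22 and 0.598 times input, then 1.06, 0.767 and 0.833 times. The rho subunits, known for slow GABA responses in the retina, summed to 1.28, 0.554 and 0.608 times input, then 1.18, 0.946 and 0.920 times. Each of these classes overlapped input in at least 1 stage, and none but NMDA had all 3 libraries of a stage above input. In that stage, proliferating, the NMDA windows of the IgG control stood at 1.29 times input (20 counts), inside the WT range.

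Set side by side, glutamate receptor windows summed to 0.29 ± 0.22 (log2 over input, SD, n = 3) in proliferating and to -0.00 ± 0.30 in differentiating cells. GABA receptor windows summed to -0.15 ± 0.28 and 0.15 ± 0.22. The glutamate windows held 104, 108 and 152 counts in proliferating libraries against 113, 69 and 142 for GABA, and 272, 188 and 267 against 287, 222 and 308 in differentiating ones. The ratio of glutamate to GABA counts was 0.920, 1.57 and 1.07, then 0.948, 0.847 and 0.867, against 0.856 and 0.982 in the inputs. The highest ratio was that of proliferating replicate 2, and the ranges of the stages overlapped. Ionotropic receptors stood at 0.07 ± 0.17 and 0.07 ± 0.25, and metabotropic receptors at 0.07 ± 0.40 and 0.09 ± 0.31, so their means lay within 1 SD of each other in both stages.

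**Figure D2:**
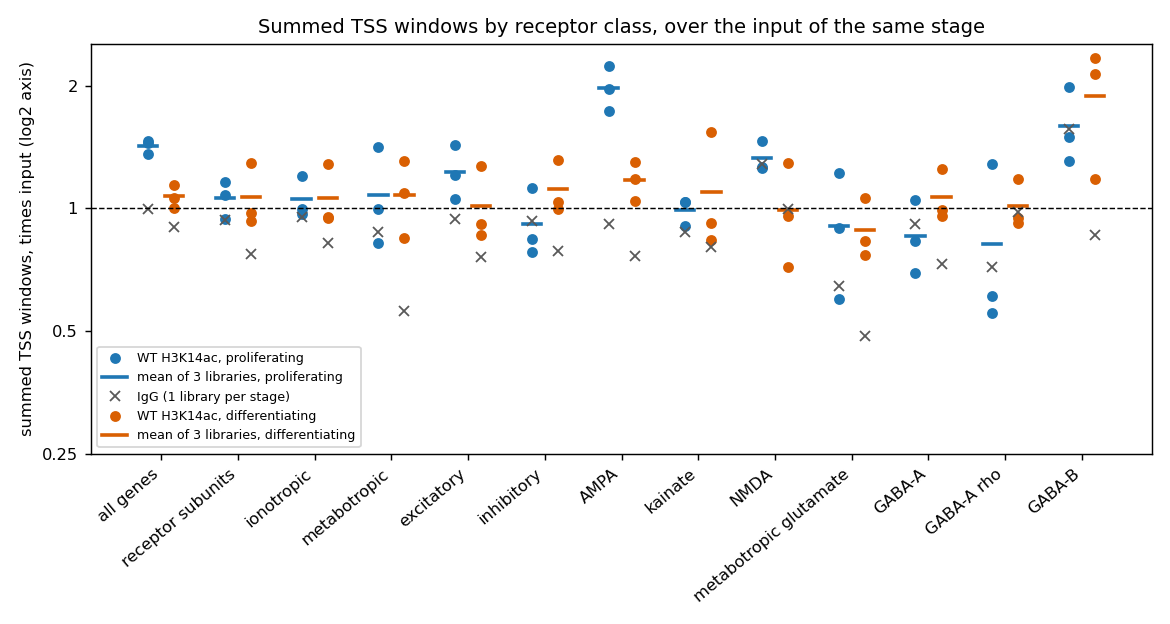
Summed TSS windows of each receptor class over the input of their stage (y axis, log2 scale, 1 = input), for 3 WT libraries per stage (points, with their mean as a bar) and 1 IgG library per stage (crosses). AMPA lies at 1.73 to 2.23 times input in proliferating cells and GABA-B at 1.18 to 2.34 times in differentiating cells, while the sum of all receptor subunits lies between 0.929 and 1.29 times input.

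Gene by gene, no receptor TSS window was called against input. edgeR's quasi-likelihood test, fitted to all TSS windows of the 6 WT and 2 input libraries with stage as a term, called 11.6% of windows higher and 0.881% lower at a Benjamini-Hochberg adjusted p under 0.05. Of the 39 members, 26 reached a mean count of 10 and were tested, and 0 were called. 6 members had an unadjusted p under 0.05 in edgeR, and DESeq2 called 0 as well. Without the filter on counts, 19 of the 39 members were above input and 20 below, with a median log2 of -0.01, while all 26973 windows had a median of 0.18 and 61.6% above input. TMM scaling brought the median of all windows tested to -0.02 from 0.25, and then called 1 member lower.

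Among the members nearest to a call were Gabbr1 and Gria2. Gabbr1 encodes the GABA-B subunit that binds GABA. Its window stood at 1.10, 2.00 and 1.58 CPM in the proliferating WT libraries and at 1.43, 0.782 and 0.879 CPM in the differentiating ones, against 0.674 and 0.473 CPM in the inputs. All 6 WT values lay above both inputs, with a log2 of 1.14 (SE 0.43, edgeR adjusted p = 0.058). It was called higher when proliferating replicate 1, differentiating replicate 2 or both libraries of high Y counts were left out. The proliferating IgG control stood at 1.58 CPM, inside the WT range, and the differentiating one at 0.361 CPM.

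Gria2 encodes the AMPA subunit that keeps the channel closed to calcium. Its window stood at 1.32, 2.50 and 1.71 CPM in proliferating and 2.15, 1.41 and 1.41 CPM in differentiating libraries, against 0.758 and 0.946 CPM in the inputs. The WT values lay above both inputs and above both IgG controls (0.792 and 0.722 CPM), with a log2 of 0.98 over input (SE 0.37, edgeR adjusted p = 0.059) and of 1.17 over IgG (SE 0.67, adjusted p = 0.26). Without differentiating replicate 2 it was called higher than input, together with Gabbr1.

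Gria1, the other AMPA gene tested, stood at 0.81 (SE 0.41). The kainate genes ran from Grik5, a subunit that needs a partner to form a channel, at 0.49 to Grik3 at -0.46. The NMDA genes ran from Grin2d, a GluN2 subunit of early development, at 0.69 to Grin1, the obligatory subunit, at -0.38. The metabotropic glutamate genes ran from Grm3, known from glia as well as neurons, at 0.82 to Grm4 at -0.56.

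The highest GABA-A gene was Gabrg1 at 0.84. The rho genes ran from Gabrr3 at 0.29 to Gabrr2 at -0.42, and Gabbr2, the GABA-B subunit that couples to the G protein, stood at 0.52. Values without overlap between WT and input were found for 6 of the 26 tested, Gabbr1, Gria1, Gria2, Gabrg1 and Grm3 among them, against 17.7% of all windows. 2 of the 11 longer genes left out were called higher than input, Grid1 (log2 1.85, SE 0.48, adjusted p = 0.0039) and Grik2 (1.52, SE 0.40, adjusted p = 0.0044).

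Against the IgG controls, 11 members reached the mean count and 0 were called, where edgeR called 5.13% of all windows higher and 0.205% lower. 0 of the 11 had an unadjusted p under 0.05, and DESeq2 called 0. The tested members ran from Gabrp, the GABA-A pi subunit (1.18, SE 0.76), to Gabrr2 (-0.28, SE 0.54). Between them lay the NMDA genes Grin2c (0.74) and Grin2d (0.58), Gabrr3 (0.50), Gabbr2 (0.41), Gabrg1 (0.25), Grik5 (0.16) and Grm3 (-0.10). Without the filter, 28 of the 39 lay above IgG, with a median of 0.45, and the median of all windows was also 0.45. Scaled by TMM, the 11 members had a median of -0.08 in place of 0.50, and all tested windows 0.06 in place of 0.67.

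Genes that act with the receptors included some called at TSS windows. Over input, edgeR called 3 of 7 tested genes of transmitter synthesis and breakdown higher, 4 of 13 transporters, 2 of 11 auxiliary subunits of AMPA and kainate receptors, 5 of 17 excitatory scaffolds, 5 of 13 inhibitory scaffolds and partners, and 1 of 1 glycine receptor gene, and 0 lower, where 11.6% of all windows were called higher. Without the proliferating input, the calls over all windows fell from 2507 to 25 higher. The genes of these lists called with both inputs include Dlg1, a scaffold (2.18, SE 0.44), and Gphn, which encodes gephyrin of inhibitory synapses (1.35, SE 0.39). They also include Slc1a2 and Slc1a3, transporters that clear glutamate, at 1.41 and 1.18, and Glrb, the glycine receptor beta subunit, at 1.45. Whether these lists differ from the receptors was not tested.

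Between stages, 1 receptor TSS window was called. In the fit of the 6 WT libraries with TMM scaling, edgeR called 2.04% of all windows higher in differentiating cells and 4.42% lower, and of the 22 members that reached the mean count 1 was higher and 0 lower. This was Gabra6, a GABA-A subunit known from cerebellar granule cells. It had 4, 5 and 4 counts in proliferating and 19, 14 and 26 counts in differentiating libraries, or 0.881, 1.25 and 0.526 against 1.51, 1.10 and 1.52 CPM. The CPM of the stages overlap, and the inputs stood at 1.10 and 1.18 CPM, at the lower end of the differentiating values. Its log2 stage difference was 1.27 (SE 0.43, edgeR adjusted p = 0.048). The call was absent with DESeq2, without the filter, with gene body totals in place of TMM (0.77, adjusted p = 0.20), and when any of 5 of the 6 libraries was left out. Without differentiating replicate 3, Gabra6 fell under the mean count and Gabrp was called. Without both libraries of high Y counts Grm2 was called in place of Gabra6.

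The other members with an unadjusted p under 0.05 were Gabrp (1.03, SE 0.38, adjusted p = 0.080), Grik3 (1.13, SE 0.47, adjusted p = 0.12) and Gabrd (0.91, SE 0.45, adjusted p = 0.20). Grik3, a kainate subunit, had 1, 4 and 7 counts in proliferating and 17, 14 and 18 in differentiating libraries, which is 0.220, 1.00 and 0.920 against 1.35, 1.10 and 1.05 CPM. In CPM its stages do not overlap, as for 36.2% of all windows tested, counted in either direction. With gene body totals as library sizes the median of all windows was -0.47, while Grik3 was higher in differentiating cells. The other members without overlap were Grid2ip (-0.48), Grin2c (-0.29) and Grin3a (-0.26), each negative, in TMM scaling. Of the classes not yet placed, the AMPA genes ran from Gria2 (0.36) to Gria1 (-0.27), the NMDA genes from Grin2d (0.01) to Grin2c, and the kainate genes from Grik3 to Grik5 (-0.18). Gabrr2 (0.36), Gabrr3 (0.31), Gabbr2 (0.28), Gabbr1 (-0.10) and Grm3 (-0.18) lay between.

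The filter on counts favours windows high in the deeper differentiating libraries, so the classes are described without it. Then 23 of the 39 members had a positive and 16 a negative stage difference, with a median log2 of 0.17 against 0.05 for all windows, and 0 were called (6 with an unadjusted p under 0.05 in edgeR). GABA receptor genes had 14 positive and 5 negative differences (median 0.25), and glutamate receptor genes 8 and 9 (median -0.09). Ionotropic receptors had 18 positive and 11 negative differences (median 0.21), and metabotropic receptors 4 and 3 (median 0.10). GABA-A genes were positive in 11 of 14, from 1.81 (Gabra5) to -0.27 (Gabra4), and NMDA genes in 1 of 5. The AMPA genes ran from 0.26 to -1.09 (Gria3), where the X-linked Gria3 had 5, 8 and 11 counts in proliferating and 6, 11 and 5 in the deeper differentiating libraries. With gene body totals as library sizes, the median of all windows tested moved to -0.47 and that of the 22 members to -0.32, with 5 positive and 17 negative, and Grid2ip was called lower, so the signs given here are relative to the bulk of all windows.

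Subtracting the change of the input gave 0 calls among 26 members tested, with 2 at an unadjusted p under 0.05 in edgeR and 0 called by DESeq2, where edgeR called 0% of all windows higher and 0.0278% lower. This difference rests on 1 input per stage, assumed to vary like the WT libraries. In simulated TSS counts this test called 0% of 66 genes changed 4-fold, so 0 calls say nothing about whether members changed. The median of the members was 0.02, and that of all windows was -0.37. Under TMM scaling these became 0.43 and 0.03. The widest values were those of Grm2 (2.05, SE 0.80), an autoreceptor that dampens glutamate release, and Grid2ip (-1.69, SE 0.78). The other classes ran from Grin1 (0.84) to Grin3a (-1.42) for NMDA, from Gabrd (1.03) to Gabrg1 (-0.45) for GABA-A and from Grik1 (0.52) to Grik5 (-0.13) for kainate genes. Grm3 (-0.74) was the lowest metabotropic gene, and Gria2 (-0.45), Gria1 (-0.84), Gabrr3 (0.22), Gabrr2 (0.01), Gabbr2 (0.54) and Gabbr1 (-0.10) complete the classes. Without the filter all 4 AMPA genes were negative (-0.84 to -0.45), 3 of 5 NMDA genes were negative (down to -1.42, Grin3a), and 8 of 14 GABA-A genes were positive.

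The pathway genes called between stages were all lower in differentiating cells, among them Slc38a2, a glutamine transporter (-1.22, SE 0.28), Dlg1 (-1.15, SE 0.28) and Homer1 (-1.20, SE 0.31). They were 1 of 7 synthesis genes, 1 of 12 transporters and 2 of 15 excitatory scaffolds, and 0 of 9 auxiliary subunits, 0 of 13 inhibitory partners and 0 of 1 glycine receptor gene were called.

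Gene bodies, the whole span of each gene with the TSS window in it, carried far more counts: 11 to 7063 per member in the WT libraries. Over input, 14 receptor genes were higher and 4 members lower, where edgeR called 8.43% of all gene bodies higher and 21.3% lower. The 14 include Gabra2, Gabra4, Gabra6, Gabrb2 and Gabrg1 of the GABA-A class, Gria2 and Gria4 of the AMPA class, Grik1, Grin3a and Grm3. The 4 lower were Grik5, Grin2d, Grin3b and Grid2ip. The members' median was -0.04, against -0.14 for all gene bodies.

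The largest positive difference was that of Gabra6, at 13.0, 16.5 and 13.8 CPM in the proliferating WT libraries and at 14.502, 15.6 and 17.1 CPM in the differentiating ones, against 7.41 and 9.77 CPM in the inputs. All 6 values lay above both inputs, with a log2 of 0.80 (SE 0.12, edgeR adjusted p = 0.0013). The IgG controls stood at 11.5 and 21.3 CPM, also above both inputs. Gria4, an AMPA subunit of fast kinetics, stood at 297, 380 and 377, then 368, 381 and 408 CPM against 227 and 252 in the inputs (log2 0.62, SE 0.09, adjusted p = 0.00084), with IgG at 315 and 419 CPM. The differentiating IgG value lay above the WT libraries of its stage in both genes. The proliferating IgG value lay below them for Gabra6 and among them for Gria4.

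The lowest was Grin3b, an NMDA subunit that lowers calcium entry, at 6.38, 4.01 and 3.81, then 4.94, 4.38 and 3.40 CPM against 8.59 and 7.25 in the inputs (log2 -0.83, SE 0.20, adjusted p = 0.010). Grik5 stood at 53.5, 42.8 and 40.7, then 46.7, 41.8 and 43.6 CPM against 73.3 and 65.2 (log2 -0.63, SE 0.09, adjusted p = 0.0010). Both lay below both inputs in all 6 WT libraries. Grin2d (-0.35, SE 0.10) and Grid2ip (-0.35, SE 0.09) were lower by less.

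By class, 8 of 19 GABA receptor genes were higher and 0 lower, and of 17 glutamate receptor genes 6 were higher and 3 lower. Among ionotropic receptors 12 of 29 were higher and 3 lower, and among metabotropic receptors 2 of 7 were higher and 0 lower. GABA-A genes lie in clusters, and the chromosome 5 cluster (Gabra2, Gabra4, Gabrg1) was higher in 3 of 3 genes, while 0 of 3 were called in the X cluster (Gabra3, Gabre, Gabrq) and 0 of 2 in the rho pair on chromosome 4 (Gabrr1, Gabrr2). Genes of a cluster share their neighbourhood and are not independent. None of the 3 rho genes or the 2 GABA-B genes was called. Within classes not yet placed, the kainate genes ran from Grik1 (0.26) to Grik5, the NMDA genes from Grin3a (0.31) to Grin3b, the metabotropic genes from Grm3 (0.36) to Grm6 (-0.30) and the AMPA genes from Gria4 to Gria3 (-0.04). The GABA-A genes ran from Gabra6 to Gabrq (-0.43), the rho genes from Gabrr3 (0.18) to Gabrr2 (-0.19), and Gabbr1 (0.01) and Gabbr2 (-0.09) lay at input.

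**Figure D3:**
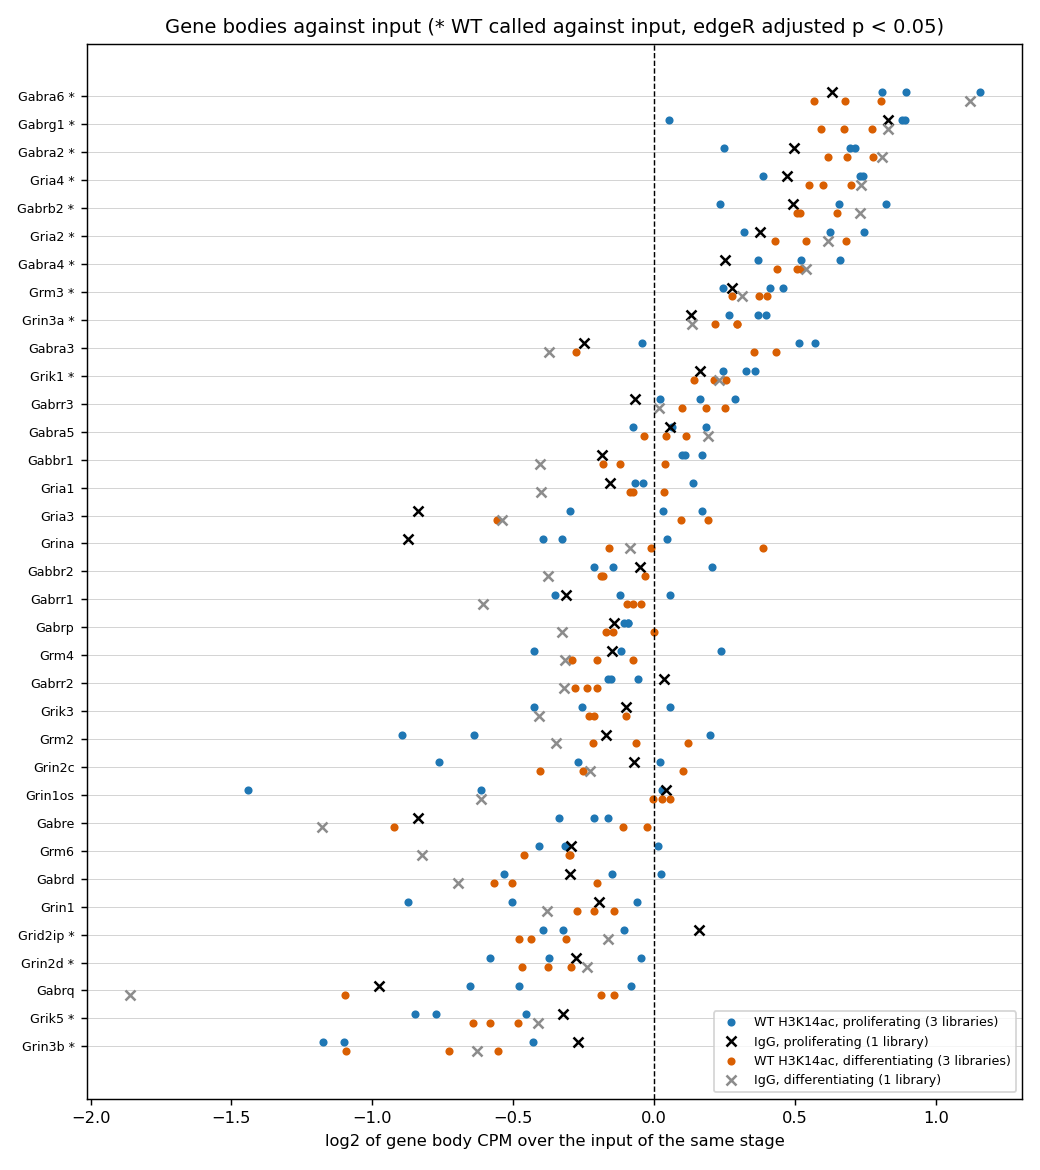
Log2 of gene body CPM over the input of the same stage (x axis) for 35 of the 39 members (rows, ordered by the fitted difference), with 3 WT libraries per stage as points and 1 IgG library per stage as crosses. The 10 genes shown that were called higher (starred, right of 0) also have both IgG crosses right of 0, and Grin3b and Gabra6 mark the ends at -0.83 and 0.80.

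The same 14 genes lay above input in the IgG controls, in 14 of 14 cases in each stage, by a log2 of 0.09 to 0.83 (median 0.39) in proliferating and 0.13 to 1.12 (median 0.60) in differentiating cells. Of the 4 lower genes, IgG lay below input in 3 in proliferating and in 4 in differentiating cells. Of the 21 members not called, IgG lay above input in 3 in proliferating and in 2 in differentiating cells. WT and IgG were set against the same input libraries, so the 2 ratios are not independent. Tested against IgG itself, 0 of the 39 gene bodies were called, where edgeR called 0.54% of all gene bodies higher and 0.739% lower. In simulated gene body counts the IgG test called 8.96% of 1.5-fold and 44.8% of 2-fold changes, so smaller differences would mostly be missed. 9 members had an unadjusted p under 0.05 in edgeR, and DESeq2 called 1, Gria3. The median was 0.06 against -0.01 for all gene bodies. In the classes without an X-linked gene, the highest were Gabrr1 (0.36), Gabbr1 (0.32), Grm6 (0.26), Grin3a (0.17) and Grik3 (0.06). The highest AMPA and GABA-A genes were X-linked and are given below. The lowest of each class were Grin3b (-0.39), Grik5 (-0.26), Gabrg1 (-0.16), Gabrr2 (-0.04), Gria4 (0.01), Grm2 (0.03) and Gabbr2 (0.12). Length moved with the calls as well: the 14 higher genes had a median length of 157325 bases and the 4 lower ones were 6467 to 62521 bases long. Among all genes of 200000 to 400000 bases 31.7% were called higher and 5.36% lower, and among those under 20000 bases 5.12% and 18.1%. Of the 11 members in the longer band 6 were higher, and of the 10 in the shorter band 1 was higher (Gabra6) and 1 lower (Grin3b). The part of length in these calls was not tested.

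These calls also rested on the inputs: without the proliferating input 0 members were called higher and 0 lower, and without the differentiating input 7 and 1. Over all gene bodies the calls went from 2094 higher and 5304 lower to 0 and 0 without the proliferating input and to 727 and 1565 without the differentiating one. Without proliferating replicate 1, 14 members were higher and 10 lower, and without both libraries of high Y counts 17 and 10. All gene bodies moved too, to 2757 higher and 7474 lower and to 3014 and 7934. The members' median stayed between -0.05 and -0.02 in these 4 settings. With TMM scaling 15 members were higher and 2 lower, Grik5 and Grin3b.

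Against IgG, the highest gene bodies were those on the X chromosome: Gabrq (0.99, SE 0.38), Gabre (0.72, SE 0.30), Gria3 (0.64, SE 0.19) and Gabra3 (0.60, SE 0.20), none with an adjusted p under 0.05 (0.13 to 0.25). Gria3 is an AMPA subunit and the other 3 are GABA-A subunits. Together they stood at 305.5, 433.8 and 401.5 CPM in the proliferating WT libraries and at 450.4, 475.7 and 285.0 CPM in the differentiating ones. The inputs stood at 354.1 and 397.0 CPM and the IgG controls at 230.4 and 275.3 CPM. The lowest WT values were those of the libraries of high Y counts, and the IgG controls, with 249 and 292 CPM of Y genes, were lower still. All X-linked genes took 2.49% and 2.34% of gene body counts in those 2 WT libraries, 3.31% to 3.95% in the other 4, and 2.00% and 2.40% in IgG. In the inputs they took 3.22% and 3.53%. Without differentiating replicate 3 all 4 genes were called higher than IgG, as they were without both libraries. Calls over all gene bodies rose too, from 128 higher and 175 lower to 397 and 304 without differentiating replicate 3. Without both libraries they were 670 and 480.

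**Figure D4:**
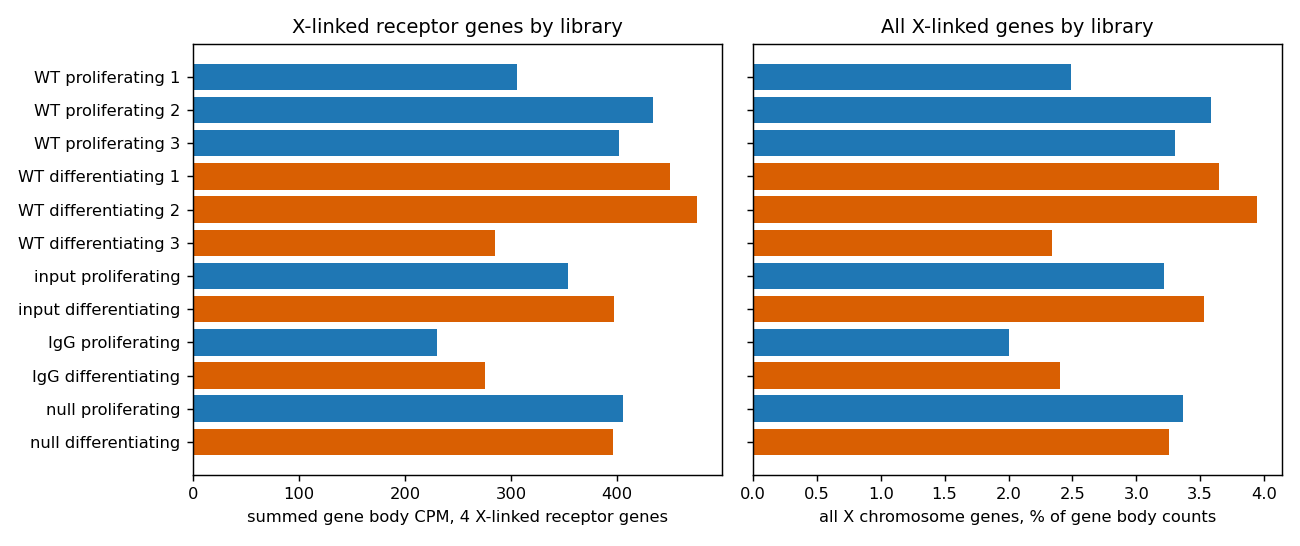
Summed gene body CPM of the 4 X-linked receptor genes (left, bars, x axis in counts per 1e6 gene body counts) and the share of gene body counts in all X-linked genes (right, bars, x axis in percent) in each of the 12 libraries. The libraries low on the left, from 230.4 CPM in proliferating IgG to 305.5 CPM in WT proliferating 1, are also those low on the right.

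Between stages, the measured differences of receptor gene bodies were small. edgeR called 0 of 39, with 1 at an unadjusted p under 0.05, and DESeq2 called 0, where edgeR called 0.0366% of all gene bodies higher and 0.126% lower. In simulated gene body counts the stage test called 20.9% of 1.5-fold and 71.6% of 2-fold changes, so 0 calls do not exclude smaller changes. The log2 differences ran from 0.32 (Gabrg1, SE 0.19) to -0.26 (Gabbr1, SE 0.09, adjusted p = 0.32), with a median of 0.04 against -0.00 for all. Gabbr1 stood at 33.9, 32.3 and 32.6 CPM in proliferating and 29.5, 26.4 and 25.3 CPM in differentiating libraries, without overlap, as for 17.3% of all gene bodies, while its inputs stood at 30.2 and 28.7 CPM. The other classes ran from Gria2 (0.18) to Gria1 (0.00), from Grin3a (0.06) to Grin2d (-0.14), from Grik1 (0.06) to Grik5 (-0.01), from Grm2 (0.15) to Grm4 (-0.19) and from Gabrr3 (0.14) to Gabrr2 (-0.12), with Gabrd the lowest GABA-A gene (-0.24) and Gabbr2 at -0.10. Glutamate and GABA receptor genes had medians of 0.02 and 0.11, and ionotropic and metabotropic genes 0.09 and -0.10. After subtracting the input change, 0 of 39 were called, 0 had an unadjusted p under 0.05, and DESeq2 called 0, with 0% of all gene bodies called. In simulated gene body counts this test called 2.99% of 1.5-fold and 11.9% of 2-fold changes, so 0 calls say little about such changes. With the input change subtracted, the receptor genes ran from Grm2 (0.36, SE 0.42) to Gabra6 (-0.26, SE 0.25).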

How the data were processed

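H3K14ac ChIP-seq of 6 WT, 2 input, 2 IgG and 2 Hbo1 null libraries was deposited by the authors as counts per gene, in 1 table for TSS windows and 1 for gene bodies. The submitters' processing notes name bcl2fastq, featureCounts and the mm10 build; the aligner, the choice of start site and the treatment of overlapping genes, strand and multimapping reads are not given in the sources used here, so Grin1 and Grin1os, which overlap, may share reads. Gene IDs matched a symbol in RefSeq (GRCm38.p6) for 25204 of 27095 genes.

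The deposited counts were tested with edgeR 4.0.16 (quasi-likelihood, prior count 0.125, R 4.3.3) over all features with a mean count of at least 10, Benjamini-Hochberg adjusted p under 0.05, two-sided. The stage fit used TMM on the WT libraries, and the input and IgG fits used gene body totals and a stage term. DESeq2 1.42.0, other scalings, filters and left-out libraries were alternatives. SD is over 3 libraries. In simulated TSS counts with known changes, the stage test called 62.1% of 4-fold and 11.9% of 2-fold changes, the input test 48.5% and 8.96%, the IgG test 33.3% and 0%, and the input-corrected test 0% and 0%. All simulations gave every gene the same dispersion, not matched to these libraries, and changed only features that passed the count filter. These shares therefore do not cover members under the filter. The 6 WT libraries had mean TSS counts per gene of 7.23 to 21.6, which limits what single windows can show.

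Named genes are drawn from all called members, the highest and lowest tested member of each class and comparison, and the 8 highest mean TSS levels; others are named as extremes chosen after their values were seen. The members, classes and lists were chosen with earlier results of these data known. Results of 4 members and of some related genes are not reported here by name, and counts over classes include them.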

Additional observations from a re-analysis of the deposited data

How the results depend on the processing

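Gabra6 was the 1 member called higher between stages at TSS windows. The count was 0 without the filter, with a mean count of at least 30 (which left 0 members), with DESeq2 and with gene body totals, which called 1 lower, and ranged from 0 to 1 when a library was left out. Replicate numbers did not pair the libraries (same-numbered correlations at TSS windows -0.01, -0.03 and 0.00; gene bodies -0.12, 0.20 and -0.19); with the replicate block the count was 0 (Gabra6 adjusted p = 0.064) and all calls went from 397 higher and 860 lower to 266 and 495. Against input, TSS calls were 0 to 2 higher with a library left out, 1 without both libraries of high Y counts (an alternative chosen after seeing the data), 2 with the longer genes added and 1 lower with TMM. Gene body calls against input ranged from 0 to 14 higher and 0 to 10 lower with a library left out, were 2 lower with TMM and 10 lower without both libraries of high Y counts. Against IgG they were 1 higher with DESeq2, 0 to 4 with a library left out and 4 without both libraries. With TMM the proliferating class sums (log2 over input) were -0.33 for all receptor subunits, -0.12 for glutamate, -0.55 for GABA, -0.33 for ionotropic and -0.34 for metabotropic genes. Without the library of high Y counts and without TMM, the same sums were 0.01, 0.29, -0.30, -0.03 and 0.10. The cause of these shifts was not tested. Of the results that answer a comparison, 279 alternatives left a count equal or close to it, or a class sum within its SD, and 31 moved it further. A class sum near input could change sign and still count as unmoved. Of single genes, 255 kept and 46 lost their call, and 0 reversed. TSS windows held 0 to 31 counts and each stage had 1 input library, which limits both regions.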
